A study of Mus musculus with 96 samples.

Results

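The imprinted growth network was represented by 10 genes, H19, Igf2, Igf2r, Cdkn1c, Meg3, Dlk1, Peg3, Mest, Grb10 and Plagl1, which were chosen by name from the 54146 genes of the count table. RNA-seq had been performed on 96 samples of C2C12 cells, a mouse myoblast line that fuses into myotubes in low serum, in 35 conditions with 2 or 3 replicates each. The study asked how the response to inhibited mitochondria depends on the metabolic state of the cell. All 10 genes were read in all 96 samples, and 7 of them reached 16 counts in every replicate of at least 1 condition.

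Myoblasts were proliferating cells of stable lines that carried a lentiviral, doxycycline-inducible transgene, and all of them received 300 ng/ml doxycycline. The transgene was Luciferase, a control protein, or 1 of 3 enzymes that oxidize NADH: LbNOX in the cytosol, mitoLbNOX in mitochondria, or NDI1, a yeast NADH dehydrogenase that feeds electrons into the respiratory chain past complex I. These lines were treated for 10 hr with DMSO, the complex I inhibitor piericidin, the complex III inhibitor antimycin or the ATP synthase inhibitor oligomycin, although not every line received every inhibitor. Luciferase and LbNOX myoblasts were also kept for 48 hr with DMSO or with chloramphenicol, which blocks mitochondrial translation. The study describes the 48 hr treatment as given with uridine, whereas its medium for the short treatments lacked both uridine and pyruvate. Post-mitotic cells, taken 24 hr into low serum, and myotubes, taken 4 days into it, were parental cells with no lentiviral transgene. The untransduced myotubes received DMSO, piericidin, antimycin, oligomycin, the uncoupler BAM15, hypoxia, or oligomycin with piericidin, with BAM15 or in hypoxia. These treatments lasted 10 hr, but hypoxic myotubes were already at 5% oxygen from the evening before and stayed there, so their hypoxia was longer. The 24 hr cells received DMSO, piericidin or oligomycin for 10 hr. Further myotubes had been transduced with adenovirus expressing GFP or LbNOX, and the LbNOX virus carries GFP as well. They too received DMSO, piericidin or oligomycin for 10 hr. Myoblasts therefore differed from the other 2 states in line, doxycycline and serum as well as in state, and these differences cannot be told apart. Each enzyme line was also a line of its own, so that a line and its transgene cannot be told apart.

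Imprinted genes are expressed mainly from a single parental copy, and many of them regulate growth before birth. Paternally expressed genes of this network, such as Igf2, Peg3, Mest, Dlk1 and Plagl1, tend to promote or accompany growth, whereas maternally expressed ones, such as H19, Igf2r and Cdkn1c, tend to restrain it. In muscle, insulin-like growth factor 2, the product of Igf2, is secreted by differentiating myoblasts and acts back on them, and the long noncoding RNA H19 is abundant in fetal muscle and regenerating fibers. The counts were not resolved by allele, and imprinting itself was not measured here.

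4 members contain miRNA genes, namely H19, Igf2, Meg3 and Mest. The mature sequences from H19 and Mest are shown because these hosts were the 2 most abundant members per kilobase at 24 hr of low serum. The precursor of miR-675 lies in an exon of H19 (chr7:142575529-142578143, minus strand, GRCm38), and that of miR-335 lies in an intron of Mest (chr6:30723547-30748465, plus strand). Capitals mark the seed, bases 2 to 8, and the sequences are RefSeq's for GRCm38.p6, printed 5′ to 3′.
mmu-miR-675-5p, chr7:142577112-142577133, minus strand: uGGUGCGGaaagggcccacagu
mmu-miR-675-3p, chr7:142577078-142577099, minus strand: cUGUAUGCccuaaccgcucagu
mmu-miR-335-5p, chr6:30741314-30741336, plus strand: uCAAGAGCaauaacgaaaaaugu
mmu-miR-335-3p, chr6:30741354-30741375, plus strand: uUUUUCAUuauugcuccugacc
The 4 seeds differ from one another. The libraries were made from polyA-selected RNA, and the levels of H19 and Mest below are those of the host transcripts, not of these miRNAs.

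Promoter windows of 250 bases before annotated starts were available from RefSeq for 8 of the 10 members, 15 windows in all, and those of H19 and Cdkn1c were not analysed here. The windows of Mest, Peg3 and Igf2 are shown because Mest and Igf2 differed widely in level between states, and Peg3 and Mest fell with each of 3 inhibitors in myoblasts. 3 motifs were searched on both strands: CAGCTG, an E-box of the kind bound by MyoD and myogenin, ACGTG, the core of the hypoxia response element, and TGATGNAA, the element bound by ATF4 with its partners. CAGCTG was found in 13% of all 32851 windows of this length, ACGTG in 16.6% and TGATGNAA in 3.45%. Capitals mark a match, which is a description of the letters and not a bound site.
Mest, upstream start, chr6:30733256-30733505, plus strand: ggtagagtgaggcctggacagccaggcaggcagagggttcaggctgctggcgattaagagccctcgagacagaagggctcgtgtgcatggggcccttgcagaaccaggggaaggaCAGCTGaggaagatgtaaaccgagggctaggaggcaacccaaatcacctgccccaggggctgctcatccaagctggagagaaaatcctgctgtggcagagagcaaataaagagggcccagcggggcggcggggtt
Mest, downstream start, chr6:30737800-30738049, plus strand: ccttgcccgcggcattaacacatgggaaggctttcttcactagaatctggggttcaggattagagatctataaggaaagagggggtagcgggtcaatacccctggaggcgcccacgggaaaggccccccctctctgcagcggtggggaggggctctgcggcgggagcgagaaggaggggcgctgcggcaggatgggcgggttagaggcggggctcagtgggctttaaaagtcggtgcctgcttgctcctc
Peg3, chr7:6730420-6730669, minus strand: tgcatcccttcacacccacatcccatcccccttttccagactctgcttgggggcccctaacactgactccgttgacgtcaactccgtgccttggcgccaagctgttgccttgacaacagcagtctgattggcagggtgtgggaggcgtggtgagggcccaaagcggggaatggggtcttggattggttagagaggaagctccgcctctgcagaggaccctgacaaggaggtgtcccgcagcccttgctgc
Igf2, chr7:142657497-142657746, minus strand: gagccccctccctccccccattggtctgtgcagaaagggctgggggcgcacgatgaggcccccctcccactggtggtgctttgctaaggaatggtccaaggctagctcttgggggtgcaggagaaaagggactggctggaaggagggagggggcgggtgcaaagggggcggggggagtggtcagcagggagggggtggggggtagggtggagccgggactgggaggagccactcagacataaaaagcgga
The only CAGCTG in the 15 windows began at -135 of the upstream Mest start, and the downstream Mest window held no match and 14 CpG dinucleotides. ACGTG was found once in another Igf2 window (chr7:142658805-142659054) and once in that of Dlk1, and overlapping matches on both strands were found in those of Plagl1 and Igf2r. TGATGNAA was found in none of the 15. The counts were summed over all transcripts of a gene and do not show which of these starts was used.

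Totals per sample ran from 6458295 to 15366745 counts. None of the 87 replicate pairs were identical. Every transgenic library held at least 372 counts of its own transgene, and 0 libraries held counts of a transgene they do not carry. The summed normalized count of 6 myotube markers was 176 to 219.7 in Luciferase myoblasts, 113431 to 119461 at 24 hr of low serum and 116328 to 120277 in myotubes, all with DMSO. The sum of 4 proliferation markers was 10821 to 11309, 1894 to 2136 and 1082 to 1330.4, in the same order. All 4 myoblast markers were called higher at 24 hr than in Luciferase myoblasts. From 24 hr to myotubes Des, which fibers keep, rose (log2 fold change 0.95), whereas Myod1 (-0.33), Myf5 (-0.95) and Pax7 (-1.26) fell. The summed normalized count of 11 markers of fat, blood, vessel, nerve and skeletal cells was 42.5 to 57.1, 22.2 to 42.5 and 29.6 to 33.3 in that order, and 8 of the 11 did not pass the filter in any model, among them the fat marker Adipoq with at most 2 counts in any of the 96 samples. The others were Cd68 of macrophages, Col2a1 of cartilage and Pecam1 of vessels, with at most 75, 57 and 40 counts. At 24 hr Cd68 was lower than in Luciferase myoblasts (log2 fold change -1.20 ± 0.41, edgeR adjusted p = 0.0126) and than in myotubes, and Col2a1, with 4 to 13 counts in Luciferase myoblasts, had 0 in the DMSO samples of both other states. Their part in the differences between states was not tested. In bulk samples, fewer cells of a type and less RNA per cell cannot be told apart. Levels below are DESeq2-normalized counts in replicate order, and tests are edgeR's quasi-likelihood test with p-values adjusted by the Benjamini-Hochberg method over every gene tested, and a gene was called at an adjusted p under 0.05.

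Of the 40 comparisons made, those between cell states gave the largest differences among the members (the plot of levels with DMSO in 3 states). Of the 5 members that passed the filter on low counts in a myoblast condition too, 4 were higher at 24 hr of low serum than in Luciferase myoblasts and 0 were lower. Of all 12765 genes tested, 63.6% were called, 31.3% higher and 32.3% lower, and among the 11775 that passed in myoblasts too, 27.9% were higher. Igf2 and Cdkn1c passed only through low serum, where they were high, so that they had to differ, and their differences from myoblasts are given as counts with no test. H19 had 298, 282 and 303 normalized counts in Luciferase myoblasts, 10992, 10797 and 11518 at 24 hr of low serum and 10366, 11083 and 11606 in myotubes. The myoblast samples lay far below all others, and the 24 hr and myotube samples overlapped. The difference between 24 hr and myoblasts was called (log2 fold change 5.19 ± 0.07, edgeR adjusted p = 1.53e-30), whereas that between myotubes and 24 hr was not (log2 fold change 0.02 ± 0.06, edgeR adjusted p = 0.818).

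**Figure D1:**
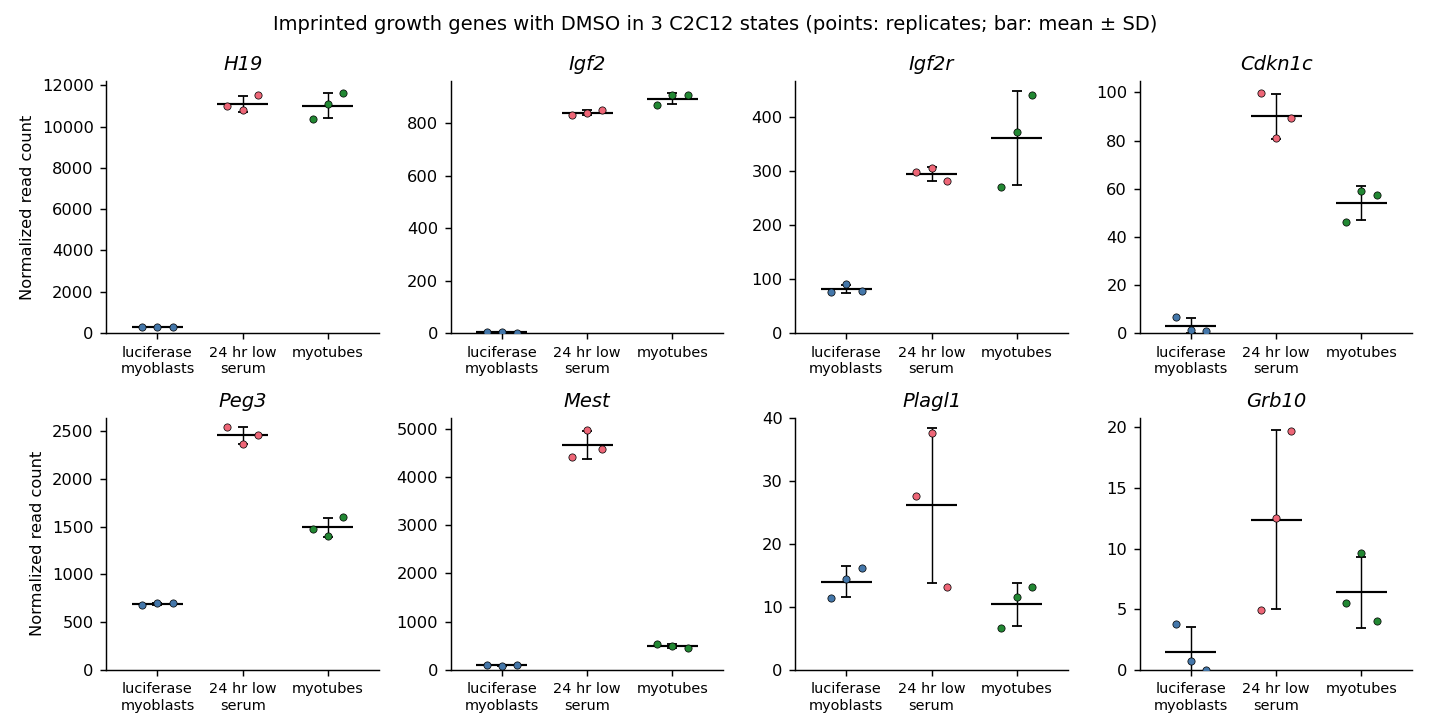
Normalized read counts of 8 imprinted growth genes with DMSO in Luciferase myoblasts, cells after 24 hr in low serum, and untransduced myotubes (points, replicates; bars, mean ± SD, n = 3 each; linear axes from 0). H19 and Igf2 were low in myoblasts and high in both other states, whereas Mest peaked at 24 hr, from 4417, 4988 and 4585 there to 544, 489 and 453 in myotubes.

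Igf2, which encodes the growth factor itself, was near the limit of detection in myoblasts, with 3, 6 and 1 raw counts in the Luciferase samples. It had 831, 839 and 850.3 normalized counts at 24 hr and 868, 906 and 905 in myotubes. Summed over the replicates, 2748 counts at 24 hr stood against 10 in myoblasts, a ratio of 294 after scaling for depth with a 95% interval of 160 to 614 that covers counting error only. Myotubes did not differ from 24 hr beyond the threshold (log2 fold change 0.12 ± 0.14, edgeR adjusted p = 0.548). Over all 45 myoblast samples, Igf2 had between 0 and 18 raw counts. Of the 5723 exon bases of Igf2 (GENCODE vM21), 3596 are shared with Gm49394 on the same strand and 98 with Igf2os on the opposite strand. Reads of the shared stretches cannot be told apart, as the libraries do not keep strand. Gm49394 itself was listed with at most 106 counts in any sample, and Igf2os with at most 6.

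Igf2r encodes the receptor that carries IGF2 to lysosomes for degradation. It had 76.7, 90.0 and 77 normalized counts in Luciferase myoblasts and 297, 306 and 281 at 24 hr, with no overlap (log2 fold change 1.80 ± 0.15, edgeR adjusted p = 2.90e-11). The antisense noncoding RNA Airn overlaps it on the opposite strand but shares 0 exon bases with it. The myotube samples had 269, 372 and 441 normalized counts of Igf2r, and 1 of them lay below all 24 hr samples while the other two lay above (log2 fold change 0.33 ± 0.14, edgeR adjusted p = 0.0669).

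Cdkn1c encodes p57, a cyclin-dependent kinase inhibitor of cell cycle exit. It shares 625 of its 2039 exon bases with the antisense gene Gm44732, which had at most 2 counts in any sample. Cdkn1c had 7, 2 and 1 raw counts in Luciferase myoblasts and 101, 84 and 109 at 24 hr. Scaled for depth, the ratio of the summed counts was 31.5 with a 95% counting interval of 16.9 to 66.3. Myotubes, with 46, 59 and 57.5 normalized counts, lay below the 99.7, 81 and 89.5 of the 24 hr samples without overlap, but the difference was not called (log2 fold change -0.70 ± 0.29, edgeR adjusted p = 0.0575), although DESeq2's Wald test called it (adjusted p = 0.0203).

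Peg3 encodes a zinc finger protein expressed in muscle progenitors. It had 680.0, 695 and 699.9 normalized counts in Luciferase myoblasts, 2547, 2363 and 2461 at 24 hr and 1475, 1399.8 and 1601 in myotubes, and the 3 groups did not overlap. It was higher at 24 hr than in myoblasts (log2 fold change 1.78 ± 0.08, edgeR adjusted p = 5.73e-18) and lower in myotubes than at 24 hr (log2 fold change -0.69 ± 0.08, edgeR adjusted p = 2.12e-08), where 35.6% of all genes were called and 3 of the 7 members were. Mest, which encodes a protein of the alpha/beta hydrolase fold, changed more. From 96.6, 85.7 and 104 normalized counts in myoblasts, it reached 4417, 4988 and 4585 at 24 hr (log2 fold change 5.56 ± 0.10, edgeR adjusted p = 7.14e-27). In myotubes it was lower again, at 544, 489 and 453 (log2 fold change -3.20 ± 0.09, edgeR adjusted p = 1.14e-20). The myotube samples nonetheless lay above the myoblast samples, with a ratio of means of 5.20. Copg2, named here after its values were seen because it shares 912 of the 3945 exon bases of Mest on the opposite strand, was also higher at 24 hr than in myoblasts (log2 fold change 1.22 ± 0.14, edgeR adjusted p = 1.82e-08).

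Plagl1, a zinc finger transcription factor at the center of the network, was low in every state. It had 11.4, 14.4 and 16.2 normalized counts in Luciferase myoblasts and 27.6, 37.6 and 13.1 at 24 hr, which overlapped (log2 fold change 0.83 ± 0.46, edgeR adjusted p = 0.116). Its fall to 6.57, 11.6 and 13.1 in myotubes passed the threshold narrowly (log2 fold change -1.27 ± 0.48, edgeR adjusted p = 0.0423), and the adjusted p was 0.247 with replicate 1 left out and 0.266 with replicate 2 left out. Grb10, an adaptor that dampens insulin and IGF receptor signaling, had 4, 1 and 0 raw counts in Luciferase myoblasts and 5, 13 and 24 at 24 hr, and it did not pass the filter. The ratio of its summed counts was 8.99 with a 95% counting interval of 3.56 to 29.1.

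Meg3 and Dlk1, which share an imprinted locus on chromosome 12, were barely detected. Dlk1, a membrane protein that holds back differentiation of fat precursors, had 0 counts in 93 of the 96 samples and at most 2 in the rest. Meg3, a noncoding RNA, had 0 counts in 54 samples and at most 5 in any. A count of 0 allows up to 3 counts, or 0.195 to 0.465 CPM (counts scaled to library totals) across these samples. A change in either gene was therefore not detectable at this depth.

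Per kilobase of merged exons, H19 was the most abundant member at 24 hr, with 4513 ± 151 normalized counts per kb (SD, n = 3), followed by Mest with 1182 ± 74.4. Peg3 had 184 per kb there, Igf2 147, Cdkn1c 44.2, Igf2r 31.6, Plagl1 3.34 and Grb10 1.36. In Luciferase myoblasts the order was different, as H19 with 120 ± 4.62 per kb was followed by Peg3 with 51.9 and Mest with 24.2. In myotubes H19 had 4479 ± 253 per kb, Igf2 156 and Mest 126 ± 11.6. Exon lengths were taken from GENCODE vM21, a later release than the one counted, and serve only to set levels of different genes side by side.

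Genes related to the members by network, position or pathway were counted for comparison, again over those that passed the filter in a myoblast condition too. Of all such genes 27.9% were higher at 24 hr than in Luciferase myoblasts and 35% were lower, with a median of -0.07 on the log2 scale. Among other genes of the imprinted network, 3 of 4 were higher and 0 were lower, with a median of 0.63. The highest was Gatm, which encodes an enzyme of creatine synthesis (log2 fold change 1.51 ± 0.06, edgeR adjusted p = 7.84e-20). Among neighbors at the members' loci, 4 of 6 were higher and 1 was lower, with a median of 0.70. Of genes that handle or transduce IGF ligands, 9 of 11 were higher and 1 was lower, with a median of 0.93. These included the related ligand Igf1 (log2 fold change 5.98 ± 0.22, edgeR adjusted p = 5.12e-20) and the IGF binding protein Igfbp5 (log2 fold change 4.41 ± 0.09, edgeR adjusted p = 1.40e-26). Of other imprinted genes, 1 of 9 was higher and 4 were lower, a share near that of all genes, with a median of -0.24. Peg10, one of those that were lower, had a log2 fold change -1.01 ± 0.14, edgeR adjusted p = 3.04e-07.

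In Luciferase myoblasts, 10 hr of any of the 3 inhibitors lowered Peg3 and Mest, whereas H19 responded in opposite directions (the plot of myoblast levels). Plagl1 passed the filter through the piericidin condition of these cells alone and is left out of the count for piericidin. There 3 of 4 members were called, with antimycin 5 of 5 and with oligomycin 3 of 5, while 61.7%, 63.2% and 50.8% of all 11978 genes were called. These 3 comparisons share their DMSO samples, as do all others within a line. H19 had 298, 282 and 303 normalized counts with DMSO, 199.7, 206 and 166 with piericidin, 187, 247 and 197 with oligomycin and 561, 586 and 544 with antimycin. The antimycin samples lay above and the piericidin and oligomycin samples below all DMSO samples. H19 fell with piericidin (log2 fold change -0.60 ± 0.09, edgeR adjusted p = 1.58e-06) and oligomycin (log2 fold change -0.47 ± 0.09, edgeR adjusted p = 5.87e-05), and rose with antimycin (log2 fold change 0.97 ± 0.09, edgeR adjusted p = 4.12e-11).

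**Figure D2:**
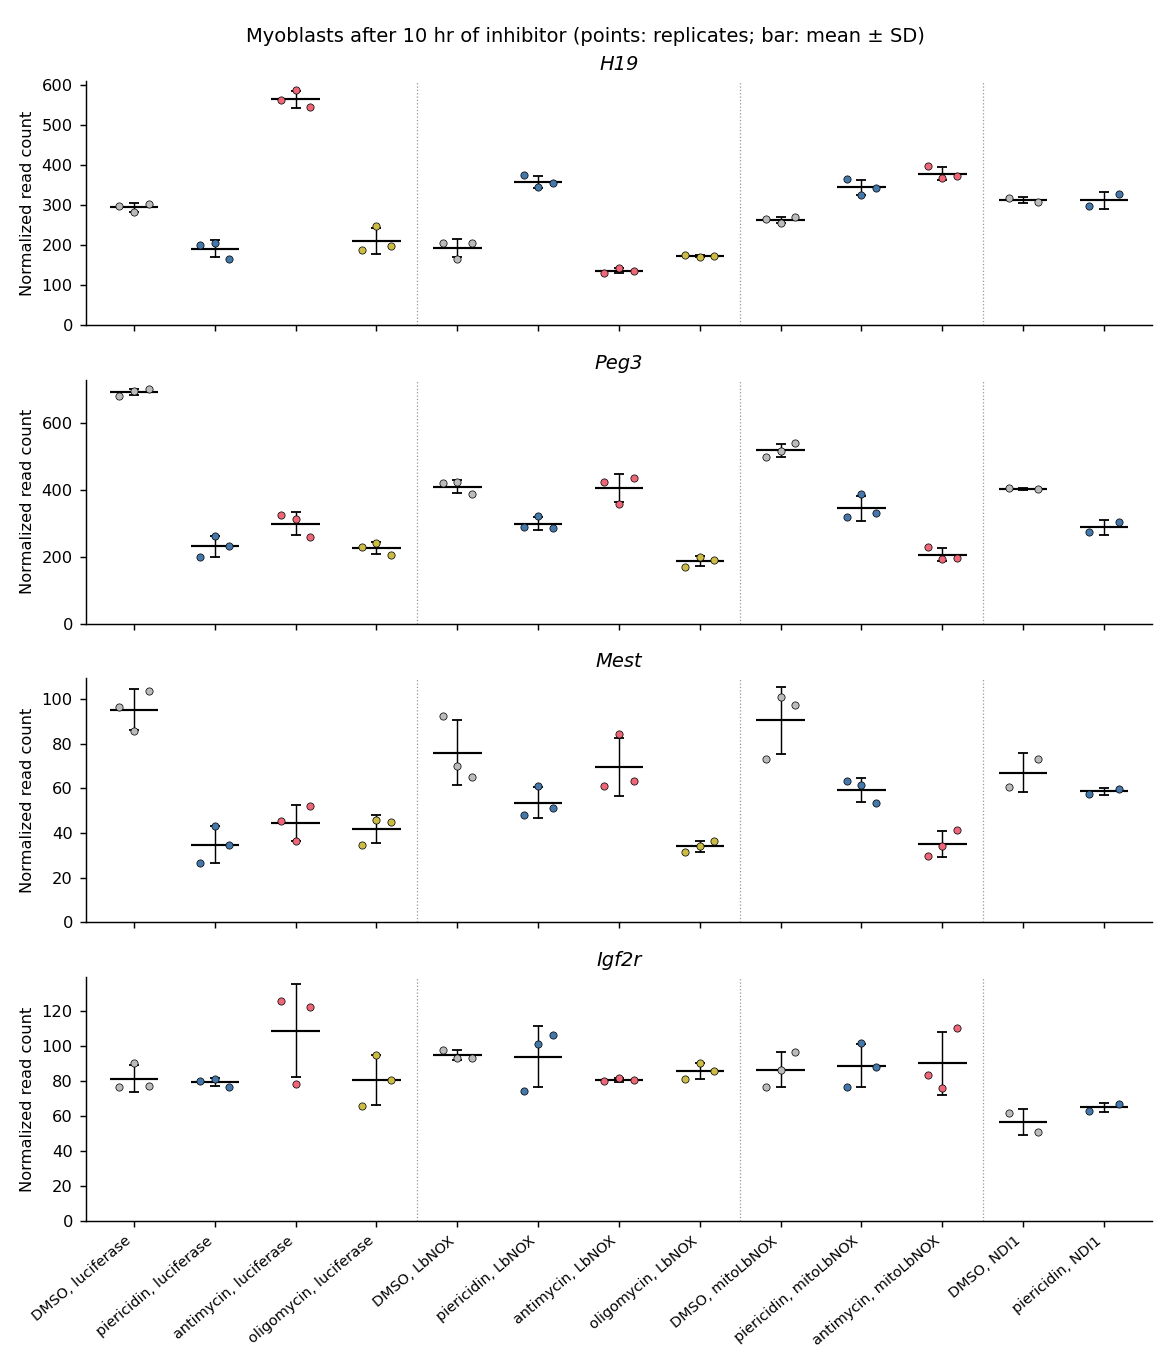
Normalized read counts of H19, Peg3, Mest and Igf2r in myoblasts of 4 lines after 10 hr with DMSO, piericidin, antimycin or oligomycin (points, replicates; bars, mean ± SD, n = 2 for NDI1 and 3 otherwise; linear axes from 0; dotted lines separate the lines). In Luciferase cells H19 ranged from 199.7, 206 and 166 with piericidin to 561, 586 and 544 with antimycin, and in LbNOX cells the order of these 2 inhibitors was opposite.

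Peg3 had 680.0, 695 and 699.9 normalized counts with DMSO, 201, 262 and 231 with piericidin, 325, 313 and 259 with antimycin and 231, 241 and 205 with oligomycin. No treated sample reached the DMSO range. The fall was called with piericidin (log2 fold change -1.55 ± 0.10, edgeR adjusted p = 1.69e-14), antimycin (log2 fold change -1.17 ± 0.10, edgeR adjusted p = 6.22e-12) and oligomycin (log2 fold change -1.60 ± 0.10, edgeR adjusted p = 1.19e-14). Mest had 96.6, 85.7 and 104 normalized counts with DMSO, 26.7, 43.3 and 34.6 with piericidin, 45.5, 36.3 and 52.3 with antimycin and 34.8, 46 and 45.1 with oligomycin, again without overlap. It fell with piericidin (log2 fold change -1.42 ± 0.20, edgeR adjusted p = 2.71e-07), antimycin (log2 fold change -1.05 ± 0.19, edgeR adjusted p = 1.85e-05) and oligomycin (log2 fold change -1.17 ± 0.19, edgeR adjusted p = 5.51e-06). The summed normalized count of 3 markers of the integrated stress response (ISR), Atf4, Ddit3 and Atf3, moved with the same treatments. It was 2497 to 2625 with DMSO, 17241 to 18159 with piericidin, 24788 to 26379 with antimycin and 10781 to 10824 with oligomycin. The sum of the 4 proliferation markers was 10821 to 11309, 9209 to 9887, 6665 to 6985 and 8975 to 9269.8, in the same order. Of the markers of other cell types, Cd68 rose with antimycin (log2 fold change 2.65 ± 0.38, edgeR adjusted p = 4.26e-07), and Col2a1 rose with piericidin (log2 fold change 2.27 ± 0.52, edgeR adjusted p = 0.000422) and oligomycin (log2 fold change 1.85 ± 0.53, edgeR adjusted p = 0.00428). The sum of the 11 was 42.5 to 57.1 with DMSO, 72 to 93.4 with piericidin, 78.4 to 91.5 with antimycin and 54.5 to 67.3 with oligomycin. Muscle markers moved too. The sum of the myotube markers was 176 to 219.7, 272 to 340.5, 861 to 947 and 230.0 to 314 with DMSO, piericidin, antimycin and oligomycin, and that of the myoblast markers was 5383 to 5618, 5356 to 5626, 7551 to 8090.0 and 4544 to 4897. Acta1, skeletal actin, was called higher with piericidin (0.86, adjusted p = 4.86e-06), antimycin (2.44, adjusted p = 1.11e-15) and oligomycin (0.65, adjusted p = 0.000254). Myf5, a myogenic regulator, was higher with the same 3 (2.39, adjusted p = 7.12e-16, then 3.62, adjusted p = 2.91e-20, and 0.53, adjusted p = 0.00187), whereas Pax7 was lower with each. Myod1 was called lower with piericidin (-0.66) and oligomycin (-0.85) and higher with antimycin (0.27), and Des was called higher with antimycin only (0.33). The part of these 5 sets of markers in the changes of the members was not tested.

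The remaining members responded less clearly in these cells. Igf2r had 76.7, 90.0 and 77 normalized counts with DMSO and 125, 78.4 and 122 with antimycin, and 1 antimycin sample lay within the DMSO range. The rise was called (log2 fold change 0.45 ± 0.17, edgeR adjusted p = 0.0215), but the adjusted p was 0.245 with replicate 1 left out and 0.193 with replicate 3 left out. Piericidin gave no called change (log2 fold change -0.01 ± 0.17, edgeR adjusted p = 0.954). Plagl1 had 11.4, 14.4 and 16.2 normalized counts with DMSO, 23.2, 33 and 31.3 with piericidin and 36.4, 39.8 and 16.6 with antimycin. All piericidin samples lay above the DMSO samples, which is given without a test because that condition alone put Plagl1 past the filter. It was called higher with antimycin (log2 fold change 1.18 ± 0.42, edgeR adjusted p = 0.0155) but not with oligomycin (log2 fold change -0.11 ± 0.45, edgeR adjusted p = 0.854). Without single replicate numbers the adjusted p for antimycin was 0.148 with replicate 1 left out and 0.12 with replicate 2 left out. Igf2, Cdkn1c, Grb10, Meg3 and Dlk1 were not tested in myoblasts because none reached 16 counts in every replicate of a myoblast condition. With oligomycin no change was called for Igf2r (-0.01, adjusted p = 0.979), on the log2 scale.

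Among other genes of the imprinted network, 3 of 4 tested fell and 1 rose with piericidin in Luciferase myoblasts, where 30.9% of all genes rose and 30.8% fell. Necdin, encoded by Ndn and known to restrain cell growth, was the lowest of these (log2 fold change -1.48 ± 0.44, edgeR adjusted p = 0.00429), and the G protein subunit gene Gnas was the one that rose (log2 fold change 0.53 ± 0.11, edgeR adjusted p = 9.54e-05). The median of the list was -0.84 on the log2 scale, beside -0.004 over all genes. Of the genes that handle or transduce IGF ligands, 4 of 11 rose, a share near that of all genes, and 1 fell, the latter being the receptor substrate Irs1 (log2 fold change -3.46 ± 0.16, edgeR adjusted p = 7.53e-18). Of neighbors at the members' loci, 4 of 6 fell and 0 rose.

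Expression of LbNOX, which oxidizes cytosolic NADH, went with a lower level of some members before any inhibitor. With DMSO, H19 had 204, 166 and 206 normalized counts in LbNOX myoblasts against 298, 282 and 303 in Luciferase myoblasts (log2 fold change -0.61 ± 0.09, edgeR adjusted p = 4.32e-05). Peg3 had 419, 423 and 386 (log2 fold change -0.75 ± 0.09, edgeR adjusted p = 4.25e-06), and both were below all Luciferase samples. 2 of 5 members were called here, against 2.66% of all genes. In mitoLbNOX myoblasts Peg3 had 499, 515 and 539 normalized counts (log2 fold change -0.41 ± 0.09, edgeR adjusted p = 0.0106), the 1 member called beside 1.74% of all genes, and the adjusted p was 0.162 with replicate 1 left out, 0.121 with replicate 2 left out and 0.0719 with replicate 3 left out. In NDI1 myoblasts, with 2 replicates, Peg3 had 404 and 401 (log2 fold change -0.77 ± 0.11, edgeR adjusted p = 8.25e-06), and it was again the 1 member called, beside 4.58% of all genes. The muscle filament gene Des was also lower with DMSO in LbNOX (-0.33, adjusted p = 8.87e-06), mitoLbNOX (-0.18, adjusted p = 0.0204) and NDI1 cells (-0.61, adjusted p = 2.67e-10), and Acta1 was lower in NDI1 cells (-0.74, adjusted p = 0.00606). The part of these markers was not tested. The other members had no called difference from Luciferase cells with DMSO, on the log2 scale. In LbNOX cells these were Igf2r (0.22, adjusted p = 0.693), Mest (-0.32, adjusted p = 0.519) and Plagl1 (-1.43, adjusted p = 0.145). In mitoLbNOX cells they were H19 (-0.15, adjusted p = 0.546), Igf2r (0.09, adjusted p = 0.906), Mest (-0.07, adjusted p = 0.929) and Plagl1 (0.08, adjusted p = 0.973). In NDI1 cells they were H19 (0.09, adjusted p = 0.769), Igf2r (-0.53, adjusted p = 0.147), Mest (-0.50, adjusted p = 0.199) and Plagl1 (0.27, adjusted p = 0.887).

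In LbNOX myoblasts H19 responded to piericidin and antimycin in the directions opposite to those in Luciferase cells. It had 204, 166 and 206 normalized counts with DMSO, 374, 344 and 354 with piericidin and 130.2, 144 and 136 with antimycin, and the 3 groups did not overlap. It rose with piericidin (log2 fold change 0.91 ± 0.09, edgeR adjusted p = 7.79e-09) and fell with antimycin (log2 fold change -0.47 ± 0.10, edgeR adjusted p = 0.000187). The test of the difference between the lines gave 1.51 ± 0.13 on the log2 scale, edgeR adjusted p = 4.45e-11 for piericidin, and -1.44 ± 0.13 on the log2 scale, edgeR adjusted p = 1.11e-10 for antimycin. With oligomycin, H19 had 174, 169 and 174, overlapping DMSO (log2 fold change -0.14 ± 0.09, edgeR adjusted p = 0.283).

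Peg3 fell less with piericidin in LbNOX than in Luciferase myoblasts. It had 419, 423 and 386 normalized counts with DMSO and 290.2, 321 and 286 with piericidin (log2 fold change -0.44 ± 0.10, edgeR adjusted p = 0.00248, and adjusted p = 0.064 with replicate 1 left out). The difference from Luciferase cells was 1.11 ± 0.14 on the log2 scale, edgeR adjusted p = 7.89e-08. With antimycin Peg3 had 423, 357 and 436, overlapping DMSO (log2 fold change 0.01 ± 0.09, edgeR adjusted p = 0.934), and the difference from Luciferase cells was 1.18 ± 0.13 on the log2 scale, edgeR adjusted p = 1.33e-08. With oligomycin Peg3 had 170.1, 199 and 189.9, below all DMSO samples (log2 fold change -1.13 ± 0.10, edgeR adjusted p = 1.85e-10). The difference from Luciferase cells was smaller there (0.48 ± 0.14 on the log2 scale, edgeR adjusted p = 0.0296), and its adjusted p was 0.0788 with replicate 1 left out, 0.125 with replicate 2 left out and 0.337 with replicate 3 left out.

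Mest had 92.5, 70.1 and 65.2 normalized counts with DMSO in LbNOX myoblasts, 48, 61.2 and 51.4 with piericidin, 60.9, 84.2 and 63.5 with antimycin and 31.5, 34.1 and 36.4 with oligomycin. Neither piericidin (log2 fold change -0.49 ± 0.19, edgeR adjusted p = 0.1) nor antimycin (log2 fold change -0.11 ± 0.18, edgeR adjusted p = 0.665) gave a called change, whereas the fall with oligomycin was called (log2 fold change -1.14 ± 0.20, edgeR adjusted p = 2.82e-05). The differences from Luciferase cells were 0.93 ± 0.27 on the log2 scale, edgeR adjusted p = 0.00599 for piericidin, and 0.95 ± 0.26 on the log2 scale, edgeR adjusted p = 0.00344 for antimycin. Their adjusted p was 0.0904 with replicate 3 left out for piericidin, and 0.13 with replicate 2 left out for antimycin. The response of Mest to oligomycin was not called different between the lines (0.03 ± 0.28 on the log2 scale, edgeR adjusted p = 0.976, 95% interval -0.54 to 0.60).

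In LbNOX myoblasts, 2 of 5 members were called with piericidin, beside 8.87% of all genes, 2 with antimycin, beside 46.1%, and 2 with oligomycin, beside 35.2%. The second called with antimycin was Plagl1, with 7.93, 5.24 and 1.92 normalized counts with DMSO and 12.2, 16.1 and 9.53 with antimycin (log2 fold change 1.30 ± 0.51, edgeR adjusted p = 0.0359, and adjusted p = 0.0532 with replicate 1 left out, 0.16 with replicate 2 left out and 0.102 with replicate 3 left out). For the difference in response between LbNOX and Luciferase cells, 3 of 4 members were called with piericidin, where Plagl1 is again left out, 4 of 5 with antimycin and 1 of 5 with oligomycin, beside 44.3%, 51.5% and 7.98% of all genes. The fourth with antimycin was Igf2r (-0.66 ± 0.24 on the log2 scale, edgeR adjusted p = 0.0232), with an adjusted p of 0.245 with replicate 1 left out and 0.218 with replicate 3 left out. The ISR marker sum in LbNOX cells was 2407 to 2469 with DMSO, 3521 to 3774 with piericidin, 1872 to 1959 with antimycin and 7683 to 7948 with oligomycin, and the sum of the 11 markers of other cell types was 51.1 to 58.5, 48.8 to 65, 64.6 to 124 and 63 to 76.4 in that order. Cd68 had 26 to 46 raw counts with antimycin and 5 to 13 with DMSO, given with no test because only antimycin conditions put it past the filter. It was called higher with oligomycin (log2 fold change 1.36 ± 0.43, edgeR adjusted p = 0.0139). The response of Col2a1 differed from that in Luciferase cells for piericidin (log2 fold change -2.38 ± 0.70, edgeR adjusted p = 0.00656) and, in the other direction, for antimycin (log2 fold change 2.17 ± 0.89, edgeR adjusted p = 0.0418). The sum of the myotube markers was 158 to 226, 304 to 378, 328 to 393 and 235 to 249.8 in the same order, and that of the myoblast markers was 4336 to 4675, 4406 to 4662, 4826 to 5115 and 3473 to 3679. The response of Myf5 differed from that in Luciferase cells for piericidin (-2.50, adjusted p = 1.52e-11) and antimycin (-3.98, adjusted p = 2.77e-16), and that of Acta1 for antimycin (-1.36, adjusted p = 7.74e-07). For piericidin, the responses of Myod1 (0.59) and Pax7 (1.65) were called different in the other direction, and for antimycin that of Myod1 (-1.05) was too, downward. The part of any of these sets in these differences was not tested. The 3 ISR markers did not move together with antimycin there, as Atf4 fell (log2 fold change -0.51 ± 0.03, edgeR adjusted p = 7.26e-14) while Ddit3 rose (log2 fold change 1.17 ± 0.07, edgeR adjusted p = 1.46e-14). No change on the log2 scale was called for Igf2r (0.0026, adjusted p = 0.995) and Plagl1 (0.61, adjusted p = 0.537) with piericidin, for Igf2r (-0.21, adjusted p = 0.342) with antimycin, or for Igf2r (-0.14, adjusted p = 0.58) and Plagl1 (0.29, adjusted p = 0.731) with oligomycin. The responses not called different from Luciferase cells were those of Igf2r (0.02, adjusted p = 0.967) to piericidin, Plagl1 (0.13, adjusted p = 0.88) to antimycin and H19 (0.33, adjusted p = 0.129), Igf2r (-0.13, adjusted p = 0.84) and Plagl1 (0.41, adjusted p = 0.826) to oligomycin.

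The mitochondrial form of the enzyme and NDI1 went with a changed response to piericidin as well. In mitoLbNOX myoblasts H19 had 265, 255 and 269 normalized counts with DMSO and 364, 325 and 342 with piericidin, a rise (log2 fold change 0.40 ± 0.09, edgeR adjusted p = 0.00175) where Luciferase cells showed a fall. Its adjusted p was 0.0806 with replicate 1 left out. The difference between the lines was 1.00 ± 0.13 on the log2 scale, edgeR adjusted p = 1.37e-07. Peg3 had 499, 515 and 539 with DMSO and 317, 387 and 329 with piericidin (log2 fold change -0.57 ± 0.09, edgeR adjusted p = 6.50e-05), and its response differed from that of Luciferase cells by 0.99 ± 0.14 on the log2 scale, edgeR adjusted p = 5.65e-07. Mest had 73.3, 101 and 97.2 and 63.5, 61.4 and 53.3 (log2 fold change -0.58 ± 0.18, edgeR adjusted p = 0.0339), with an adjusted p of 0.262 with replicate 2 left out and 0.271 with replicate 3 left out. The difference in its response was 0.84 ± 0.27 on the log2 scale, edgeR adjusted p = 0.0119, with an adjusted p of 0.261 with replicate 1 left out and 0.0594 with replicate 3 left out. Plagl1, with 4, 14 and 1 raw counts with piericidin, was called lower (log2 fold change -1.48 ± 0.49, edgeR adjusted p = 0.0455), with an adjusted p of 0.291 with replicate 1 left out and 0.246 with replicate 3 left out. In total 4 of 5 members were called with piericidin, beside 11.2% of all genes, and 3 of 4 in the difference between lines, with Plagl1 left out, beside 42.9%. Acta1 was higher with piericidin in these cells (0.84, adjusted p = 5.83e-05). The response of Myf5 differed from that in Luciferase cells (-2.63, adjusted p = 7.23e-12), and that of Myod1 was called different in the other direction (0.57). The part of these muscle markers was not tested. Neither the change of Igf2r (0.06, adjusted p = 0.87) nor the difference in its response was called, the latter being Igf2r (0.08, adjusted p = 0.827).

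With antimycin, mitoLbNOX myoblasts changed in the same directions as Luciferase cells. H19 had 396, 366 and 372 normalized counts (log2 fold change 0.55 ± 0.09, edgeR adjusted p = 4.61e-06), Peg3 had 229, 193 and 197 (log2 fold change -1.30 ± 0.10, edgeR adjusted p = 2.88e-12), and Mest had 29.8, 34.2 and 41.3 (log2 fold change -1.32 ± 0.19, edgeR adjusted p = 1.35e-06). None of these overlapped the DMSO samples of the line. Acta1 (1.90, adjusted p = 9.29e-13) and Myf5 (1.97, adjusted p = 4.81e-13) rose as well, less than in Luciferase cells (-0.54, adjusted p = 0.0313 for Acta1, and -1.65, adjusted p = 6.33e-08 for Myf5). Pax7 was called lower (-1.76) and Des higher (0.17), and Myod1 was not called. Cd68 had 52 to 75 raw counts against 2 to 11 with DMSO, again given with no test because of the filter. The sum of the markers of other cell types was 99.4 to 115 against 28.2 to 54.4 with DMSO. What part these markers had was not tested. 3 of 5 members were called, beside 47.7% of all genes. The rise of H19 was smaller than in Luciferase cells by -0.42 ± 0.12 on the log2 scale, edgeR adjusted p = 0.00893, with an adjusted p of 0.0712 with replicate 1 left out and 0.0851 with replicate 3 left out, and H19 was the 1 of 5 members called in this comparison, beside 31.7% of all genes. The responses of Peg3 (-0.12 ± 0.14 on the log2 scale, edgeR adjusted p = 0.528, 95% interval -0.40 to 0.16) and Mest (-0.26 ± 0.27 on the log2 scale, edgeR adjusted p = 0.497, 95% interval -0.81 to 0.29) were not called different. The changes of Igf2r (0.10, adjusted p = 0.645) and Plagl1 (-0.03, adjusted p = 0.962) were not called, nor were the differences in response of Igf2r (-0.35, adjusted p = 0.286) and Plagl1 (-1.21, adjusted p = 0.134).

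In NDI1 myoblasts piericidin gave no called change in any of the 5 members, where 0.00835% of all genes, a single gene, were called by edgeR. DESeq2's Wald test also called 0 of the 5, whereas with no filter on low counts edgeR called Peg3 (adjusted p = 0.0279). H19 had 318 and 308 normalized counts with DMSO and 297 and 326 with piericidin, which overlapped (log2 fold change 0.01 ± 0.11, edgeR adjusted p = 0.989). Peg3 had 404 and 401 with DMSO and 273 and 303 with piericidin, without overlap (log2 fold change -0.47 ± 0.12, edgeR adjusted p = 0.463), and it was the 1 of 5 members with an unadjusted edgeR p under 0.05, at 0.00039. The responses of H19 (0.61 ± 0.14 on the log2 scale, edgeR adjusted p = 0.000744), Peg3 (1.08 ± 0.15 on the log2 scale, edgeR adjusted p = 8.57e-07) and Mest (1.24 ± 0.30 on the log2 scale, edgeR adjusted p = 0.00117) differed from those in Luciferase cells. These were 3 of the 4 members counted, with Plagl1 left out, beside 42.7% of all genes. The adjusted p for Mest was 0.0678 with replicate 1 left out. NDI1 cells have 2 replicates, so leaving out replicate 1 or 2 leaves 1 sample per NDI1 condition, which is assumed to vary like the other groups, and leaving out replicate 3 removes samples of the other lines only. The response of Col2a1 differed too (log2 fold change -2.17 ± 0.81, edgeR adjusted p = 0.0299), as did those of Myf5 (-2.26, adjusted p = 1.08e-09) and Acta1 (-0.92, adjusted p = 0.00242). That of Myod1 was called different in the other direction (0.55), and the part of these markers was not tested. The remaining changes with piericidin were Igf2r (0.22, adjusted p = 0.796), Mest (-0.18, adjusted p = 0.849) and Plagl1 (-0.80, adjusted p = 0.679), and the remaining difference in response was Igf2r (0.23, adjusted p = 0.549).

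Chloramphenicol for 48 hr lowered Peg3 in Luciferase myoblasts. With 2 replicates in each group, Peg3 had 982 and 1064 normalized counts with DMSO and 747 and 721 with chloramphenicol, without overlap (log2 fold change -0.45 ± 0.11, edgeR adjusted p = 0.0349), the 1 of 5 members called beside 8.45% of all genes. The call was lost with sample position, an outer or inner class assumed from the sample codes, as a covariate (-0.37, edgeR adjusted p = 0.0638). In LbNOX myoblasts Peg3 had 497 and 604 and 340.5 and 402 (log2 fold change -0.55 ± 0.11, edgeR adjusted p = 0.0789), and 0 of 5 members were called by edgeR, beside 0.931% of all genes, with 2 of 5 at an unadjusted p under 0.05. DESeq2's Wald test called Peg3 there (adjusted p = 0.00553), and with no filter edgeR called Peg3 (adjusted p = 9.88e-05) and H19 (adjusted p = 0.0068). H19 had 720.4 and 818 with DMSO and 493 and 727 with chloramphenicol in Luciferase cells, which overlapped (log2 fold change -0.30 ± 0.19, edgeR adjusted p = 0.402). The 48 hr wells were seeded more sparsely than the 10 hr wells, and were compared only with each other. The other members not called were Igf2r (0.59, adjusted p = 0.0627), Mest (0.23, adjusted p = 0.579) and Plagl1 (0.46, adjusted p = 0.659) in Luciferase cells and H19 (-0.46, adjusted p = 0.383), Igf2r (0.10, adjusted p = 0.847), Mest (-0.36, adjusted p = 0.521) and Plagl1 (-0.38, adjusted p = 0.804) in LbNOX cells, on the log2 scale.

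In untransduced myotubes each of the 3 inhibitors changed 2 of 6 members tested (the plot of myotube levels). The shares called with piericidin, antimycin and oligomycin were 8.99%, 12.9% and 33.3% of all 12491 genes. Mest had 544, 489 and 453 normalized counts with DMSO and 281, 331 and 291 with oligomycin, all below the DMSO samples (log2 fold change -0.71 ± 0.09, edgeR adjusted p = 5.58e-07). With piericidin it had 569, 585 and 588 (log2 fold change 0.24 ± 0.08, edgeR adjusted p = 0.082) and with antimycin 591, 612 and 516 (log2 fold change 0.23 ± 0.08, edgeR adjusted p = 0.0744), neither of which was called. The ISR marker sum was 2375 to 2432 with DMSO, 2350.4 to 2459 with piericidin, 3071 to 3122 with antimycin and 11864 to 12368 with oligomycin, and the sum of the markers of other cell types was 29.6 to 33.3, 53.1 to 58.1, 47.9 to 73.8 and 54.5 to 69.7 in that order. Cd68 was called higher with each of the 3 inhibitors, by 1.21 to 1.67 on the log2 scale. It passed the filter there only through treated conditions, and the DMSO samples had 7 to 11 raw counts. Muscle markers changed as well, with Acta1 higher (by 0.35 to 0.48) and Myf5 higher (by 0.68 to 1.49) with each of the 3, and Des lower with each. Mymk (-0.32, -0.33 and -0.33 with piericidin, antimycin and oligomycin) and Tnnt3 (-0.21, -0.16 and -0.17) were also called lower with each. Ckm was higher with piericidin (0.32) and antimycin (0.24), and Myod1 was lower with oligomycin (-0.23). Myogenin, Myog, was higher with oligomycin (1.29, adjusted p = 5.88e-18) and lower with piericidin (-0.27, adjusted p = 4.24e-05) and antimycin (-0.23, adjusted p = 0.000235). The part of these sets in the changes of the members was not tested. With piericidin, where the ISR sum overlapped DMSO, Ddit3 was higher (log2 fold change 0.36 ± 0.09, edgeR adjusted p = 0.00887).

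**Figure D3:**
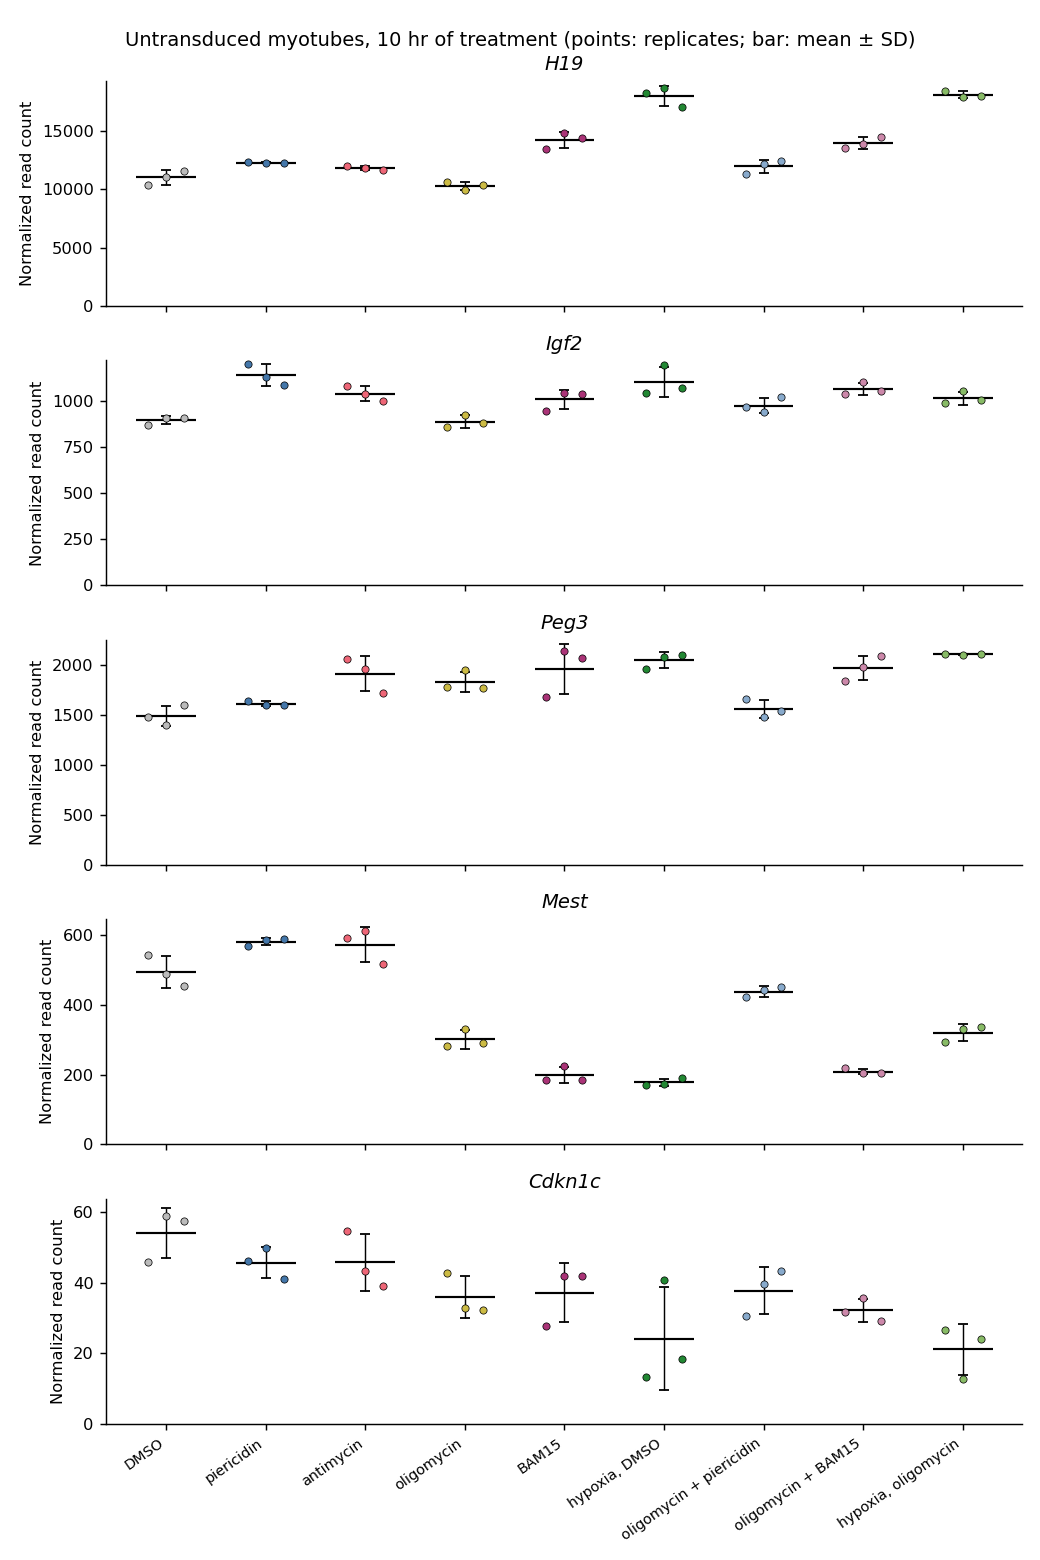
Normalized read counts of H19, Igf2, Peg3, Mest and Cdkn1c in untransduced myotubes in 9 conditions, each with 10 hr of treatment (points, replicates; bars, mean ± SD, n = 3 each; linear axes from 0). H19 was highest in hypoxia, with or without oligomycin, and Mest was lowest with BAM15, in hypoxia with DMSO and with oligomycin and BAM15 together.

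Peg3 moved upward rather than downward in these cells. It had 1475, 1399.8 and 1601 normalized counts with DMSO, 1775, 1946 and 1766 with oligomycin (log2 fold change 0.30 ± 0.08, edgeR adjusted p = 0.0029) and 2059, 1958 and 1715 with antimycin (log2 fold change 0.37 ± 0.07, edgeR adjusted p = 0.00115). The adjusted p was 0.104 with replicate 2 left out for oligomycin, and 0.0523 with replicate 2 left out for antimycin. Igf2 had 868, 906 and 905 with DMSO, 1200.0, 1128 and 1086 with piericidin (log2 fold change 0.36 ± 0.06, edgeR adjusted p = 0.000128) and 1079.7, 1037 and 997 with antimycin (log2 fold change 0.23 ± 0.06, edgeR adjusted p = 0.0059). All treated samples lay above all DMSO samples, although the adjusted p for antimycin was 0.106 with replicate 1 left out and 0.0575 with replicate 2 left out. H19 had 12335, 12258 and 12222 with piericidin against 10366, 11083 and 11606 with DMSO (log2 fold change 0.16 ± 0.04, edgeR adjusted p = 0.0115), with an adjusted p of 0.178 with replicate 1 left out and 0.0727 with replicate 2 left out. On the log2 scale, no change was called with piericidin for Igf2r (-0.09, adjusted p = 0.801), Cdkn1c (-0.24, adjusted p = 0.719) and Peg3 (0.12, adjusted p = 0.397). With antimycin none was called for H19 (0.12, adjusted p = 0.0682), Igf2r (-0.12, adjusted p = 0.65) and Cdkn1c (-0.22, adjusted p = 0.692), nor with oligomycin for H19 (-0.09, adjusted p = 0.11), Igf2 (-0.0028, adjusted p = 0.976), Igf2r (-0.0040, adjusted p = 0.987) and Cdkn1c (-0.59, adjusted p = 0.131).

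BAM15 and hypoxia moved H19 and Mest further than the 3 inhibitors did, with no test of that difference. With BAM15 4 of 6 members were called, beside 25.4% of all genes, and in hypoxia 5 of 6, beside 22.1%. H19 had 13435, 14787 and 14391 normalized counts with BAM15 (log2 fold change 0.37 ± 0.04, edgeR adjusted p = 3.65e-07) and 18226, 18684 and 17053 in hypoxia (log2 fold change 0.73 ± 0.04, edgeR adjusted p = 1.13e-12), above all DMSO samples. Mest had 185, 225 and 184 with BAM15 (log2 fold change -1.32 ± 0.09, edgeR adjusted p = 5.64e-11) and 170.5, 173 and 189 in hypoxia (log2 fold change -1.46 ± 0.09, edgeR adjusted p = 5.81e-12), below all DMSO samples. The ISR marker sum was 4188 to 4464 with BAM15 and 2421 to 2593 in hypoxia, against 2375 to 2432 with DMSO. Within the sum, Ddit3 was nonetheless higher in hypoxia (log2 fold change 0.50 ± 0.09, edgeR adjusted p = 8.20e-05), and Atf4 was not called (log2 fold change 0.02 ± 0.05, edgeR adjusted p = 0.832). Mest had its lowest mean of the myotube conditions in hypoxia. The proliferation marker sum was 221 to 251 in hypoxia against 1082 to 1330.4 with DMSO, and the sum of the markers of other cell types was 55.2 to 63.5 with BAM15 and 46.5 to 53.4 in hypoxia. Cd68 was higher with BAM15 (log2 fold change 1.32 ± 0.31, edgeR adjusted p = 0.00282) and in hypoxia (log2 fold change 1.05 ± 0.32, edgeR adjusted p = 0.0175). Acta1 was higher with BAM15 (0.46, adjusted p = 6.23e-14) and in hypoxia (0.39, adjusted p = 1.06e-12), and Des was lower with both. Mymk (-0.31 with BAM15 and -0.12 in hypoxia) and Myod1 (-0.29 and -0.19) were called lower with both. Myh3 was higher with BAM15 (0.20) and lower in hypoxia (-0.26). Myf5 (0.83) and Ckm (0.22) were higher with BAM15, and Myog was higher in hypoxia (0.46). The part of these in the changes of the members was not tested.

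Peg3 rose with BAM15, to 1674, 2138 and 2066 normalized counts (log2 fold change 0.39 ± 0.07, edgeR adjusted p = 0.000372, and adjusted p = 0.0512 with replicate 2 left out), and in hypoxia, to 1958, 2082 and 2101 (log2 fold change 0.48 ± 0.08, edgeR adjusted p = 2.81e-05). Its neighbors Zim1 and Usp29, imprinted genes of the same cluster, rose in hypoxia too (log2 fold change 1.27 ± 0.14, edgeR adjusted p = 2.20e-07 for Zim1, and log2 fold change 1.08 ± 0.33, edgeR adjusted p = 0.0205 for Usp29). Igf2 had 1042, 1193 and 1067 in hypoxia (log2 fold change 0.32 ± 0.06, edgeR adjusted p = 0.000106) and 945, 1039.9 and 1034 with BAM15 (log2 fold change 0.17 ± 0.06, edgeR adjusted p = 0.0262), and for BAM15 the adjusted p was 0.0587 with replicate 1 left out, 0.117 with replicate 2 left out and 0.194 with replicate 3 left out. Cdkn1c had 46, 59 and 57.5 with DMSO and 13.3, 40.7 and 18.4 in hypoxia, all below the DMSO samples (log2 fold change -1.14 ± 0.30, edgeR adjusted p = 0.00757), with an adjusted p of 0.0635 with replicate 1 left out and 0.136 with replicate 3 left out. Igf2r gave no called change with either treatment (log2 fold change -0.07 ± 0.14, edgeR adjusted p = 0.735 for BAM15, and log2 fold change -0.12 ± 0.14, edgeR adjusted p = 0.61 for hypoxia). In hypoxia, 5 of 10 neighbors tested were higher and 0 were lower, with a median of 0.34 beside 0.0229 over all genes. Over all genes, 12.3% were higher and 9.78% were lower. No change was called with BAM15 for Cdkn1c (-0.54, adjusted p = 0.182).

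Mest was nearer its DMSO level with piericidin added to oligomycin than with oligomycin alone, whereas with BAM15 added it was lower than with oligomycin alone. Mest had 281, 331 and 291 normalized counts with oligomycin, 421, 442 and 450.3 with oligomycin and piericidin, and 218, 204 and 204 with oligomycin and BAM15, 3 groups with no overlap. Against oligomycin alone, Mest was higher with piericidin (log2 fold change 0.53 ± 0.09, edgeR adjusted p = 6.03e-05) and lower with BAM15 (log2 fold change -0.53 ± 0.09, edgeR adjusted p = 8.08e-05). The samples with BAM15 alone, given above, overlapped those with oligomycin and BAM15, and no test was run between them. With oligomycin in hypoxia Mest had 294, 331 and 336, overlapping oligomycin alone (log2 fold change 0.11 ± 0.09, edgeR adjusted p = 0.389, 95% interval -0.08 to 0.29). These samples lay above all hypoxic samples with DMSO, given above. Within hypoxia Mest was thus higher, not lower, with oligomycin, and no test was run of that difference. The ISR marker sum was 3951 to 4293 with oligomycin and piericidin, 4673 to 5224 with oligomycin and BAM15, and 3190.1 to 3673 with oligomycin in hypoxia. Cd68 was lower with oligomycin in hypoxia than with oligomycin alone (log2 fold change -1.45 ± 0.31, edgeR adjusted p = 0.000604), and Myog was lower than with oligomycin alone when piericidin (-1.31, adjusted p = 1.39e-17) or BAM15 (-1.26, adjusted p = 9.01e-18) was added and in hypoxia (-0.79, adjusted p = 6.12e-14). The proliferation markers Mki67 (-3.09), Top2a (-2.56), Ccnb1 (-2.69) and Cdk1 (-1.28) were called lower with oligomycin in hypoxia than with oligomycin alone. The part of any of these in the differences of Mest, or of the other members below, was not tested.

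H19 had 10625, 9923 and 10375 normalized counts with oligomycin and 18459, 17896 and 17985 with oligomycin in hypoxia (log2 fold change 0.83 ± 0.04, edgeR adjusted p = 5.44e-14). It was also higher with piericidin (log2 fold change 0.21 ± 0.04, edgeR adjusted p = 0.000578) and BAM15 (log2 fold change 0.44 ± 0.04, edgeR adjusted p = 1.12e-08) added to oligomycin. Igf2 was higher with BAM15 added (log2 fold change 0.26 ± 0.06, edgeR adjusted p = 0.000967) and in hypoxia (log2 fold change 0.21 ± 0.06, edgeR adjusted p = 0.00515), and the adjusted p of the latter was 0.0611 with replicate 3 left out. Peg3 was lower with piericidin added (log2 fold change -0.23 ± 0.07, edgeR adjusted p = 0.0271), with an adjusted p of 0.296 with replicate 2 left out and 0.0953 with replicate 3 left out. It was higher with oligomycin in hypoxia (log2 fold change 0.22 ± 0.07, edgeR adjusted p = 0.0244), with an adjusted p of 0.0699 with replicate 1 left out, 0.0579 with replicate 2 left out and 0.168 with replicate 3 left out. Of 6 members, 3 were called with piericidin added, 3 with BAM15 added and 3 in hypoxia, beside 20.9%, 26.1% and 33.3% of all genes. Against oligomycin alone, no change was called with piericidin added for Igf2 (0.13, adjusted p = 0.111), Igf2r (-0.30, adjusted p = 0.133) and Cdkn1c (0.07, adjusted p = 0.906), with BAM15 added for Igf2r (-0.01, adjusted p = 0.981), Cdkn1c (-0.15, adjusted p = 0.765) and Peg3 (0.10, adjusted p = 0.344), or in hypoxia for Igf2r (-0.18, adjusted p = 0.368) and Cdkn1c (-0.75, adjusted p = 0.0736).

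Post-mitotic cells at 24 hr of low serum, where Mest was at its highest, lost most of it with oligomycin. Mest had 4417, 4988 and 4585 normalized counts with DMSO, 1633, 1541 and 1708 with oligomycin and 4788, 4533 and 4628 with piericidin. The oligomycin samples lay far below the others (log2 fold change -1.48 ± 0.05, edgeR adjusted p = 5.02e-09), whereas piericidin and DMSO overlapped (log2 fold change 0.00 ± 0.05, edgeR adjusted p = 0.996, 95% interval -0.11 to 0.11). The ISR marker sum was 2705 to 2804 with DMSO, 9052 to 9162 with oligomycin and 2284 to 2446 with piericidin. Among muscle markers, Myog (0.44, adjusted p = 4.78e-06) and Myf5 (1.02, adjusted p = 8.97e-05) were higher with oligomycin. Ckm (-0.18), Myh3 (-0.38), Mymk (-0.15) and Des (-0.24) were called lower, and Acta1, Tnnt3, Myod1 and Pax7 were not called. Their part in the fall was not tested. Cdkn1c had 99.7, 81 and 89.5 with DMSO and 41.1, 67.2 and 39.7 with oligomycin (log2 fold change -0.83 ± 0.23, edgeR adjusted p = 0.0238), with an adjusted p of 0.235 with replicate 1 left out and 0.155 with replicate 3 left out. Plagl1 had 27.6, 37.6 and 13.1 and 7.57, 12.4 and 5.37 (log2 fold change -1.56 ± 0.44, edgeR adjusted p = 0.0257), with an adjusted p of 0.192 with replicate 1 left out and 0.0979 with replicate 2 left out. 3 of 7 members were called with oligomycin, beside 20.7% of all 11827 genes. With piericidin edgeR called 0 of 7, beside 2.75%, and 1 of 7 had an unadjusted p under 0.05, and DESeq2's Wald test also called 0. Peg3 and H19 had no called change with oligomycin (log2 fold change -0.04 ± 0.06, edgeR adjusted p = 0.702 for Peg3, and log2 fold change -0.01 ± 0.03, edgeR adjusted p = 0.865 for H19). No change was called with oligomycin for Igf2 (0.09, adjusted p = 0.283) and Igf2r (-0.02, adjusted p = 0.888) either. With piericidin the other members were H19 (0.09, adjusted p = 0.195), Igf2 (0.07, adjusted p = 0.604), Igf2r (-0.01, adjusted p = 0.981), Cdkn1c (-0.21, adjusted p = 0.709), Peg3 (0.09, adjusted p = 0.489) and Plagl1 (-0.28, adjusted p = 0.778), on the log2 scale.

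The responses of myotubes and Luciferase myoblasts to the same inhibitor were compared directly (the plot of responses by state). Of the 5 members that passed the filter in a myoblast condition, 5 responses were called different for antimycin and 3 for oligomycin. For piericidin, where Plagl1 is left out because it passed in myoblasts through that condition alone, 3 of 4 were. The shares for piericidin, antimycin and oligomycin were 46.5%, 47.9% and 29.0% of all genes called. Peg3 fell in myoblasts with each of the 3 inhibitors and had no called fall in myotubes, and its response differed by 1.72 ± 0.11 on the log2 scale, edgeR adjusted p = 5.16e-13 for piericidin, by 1.59 ± 0.11 on the log2 scale, edgeR adjusted p = 1.99e-12 for antimycin, and by 1.91 ± 0.11 on the log2 scale, edgeR adjusted p = 2.48e-13 for oligomycin. Mest differed by 1.70 ± 0.17 on the log2 scale, edgeR adjusted p = 2.38e-09 for piericidin, and by 1.33 ± 0.16 on the log2 scale, edgeR adjusted p = 1.18e-07 for antimycin. For oligomycin, which lowered Mest in both states, the difference was smaller (0.46 ± 0.16 on the log2 scale, edgeR adjusted p = 0.0345), with an adjusted p of 0.0859 with replicate 1 left out and 0.162 with replicate 3 left out. H19 differed by 0.81 ± 0.09 on the log2 scale, edgeR adjusted p = 2.17e-08 for piericidin, by -0.81 ± 0.09 on the log2 scale, edgeR adjusted p = 7.10e-09 for antimycin, and by 0.38 ± 0.09 on the log2 scale, edgeR adjusted p = 0.00169 for oligomycin. The last had an adjusted p of 0.123 with replicate 1 left out. Plagl1 differed by -1.88 ± 0.73 on the log2 scale, edgeR adjusted p = 0.0339 for antimycin, with an adjusted p of 0.113 with replicate 1 left out and 0.219 with replicate 2 left out. Igf2r differed by -0.53 ± 0.22 on the log2 scale, edgeR adjusted p = 0.047 for antimycin, with an adjusted p of 0.679 with replicate 3 left out and 0.0552 with a replicate block. Igf2 and Cdkn1c, with too few counts in myoblasts, are not compared here. Of the markers of other cell types, Cd68 also differed in its response to oligomycin (log2 fold change 1.97 ± 0.51, edgeR adjusted p = 0.00407). No test is given for its response to antimycin, because in Luciferase myoblasts Cd68 passed the filter through that condition alone. Among muscle markers, Myf5 differed in its response to piericidin (-1.67, adjusted p = 1.74e-09), antimycin (-2.59, adjusted p = 1.06e-13) and oligomycin (0.96, adjusted p = 4.70e-05), as did Acta1 (-0.34, adjusted p = 0.00762 for piericidin, -2.01, adjusted p = 4.18e-16 for antimycin, and -0.31, adjusted p = 0.0233 for oligomycin). Myod1 (0.77, -0.21 and 0.63 in the same order) and Des (-0.21, -0.56 and -0.17) were called different as well. So was Pax7 for piericidin (1.86) and antimycin (2.50). Acta1 was the only 1 of 6 myotube markers that passed the filter in a myoblast condition. The part of these markers was not tested. The responses not called different were those of Igf2r (-0.03, adjusted p = 0.947) to piericidin and Igf2r (0.01, adjusted p = 0.993) and Plagl1 (-0.98, adjusted p = 0.369) to oligomycin.

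**Figure D4:**
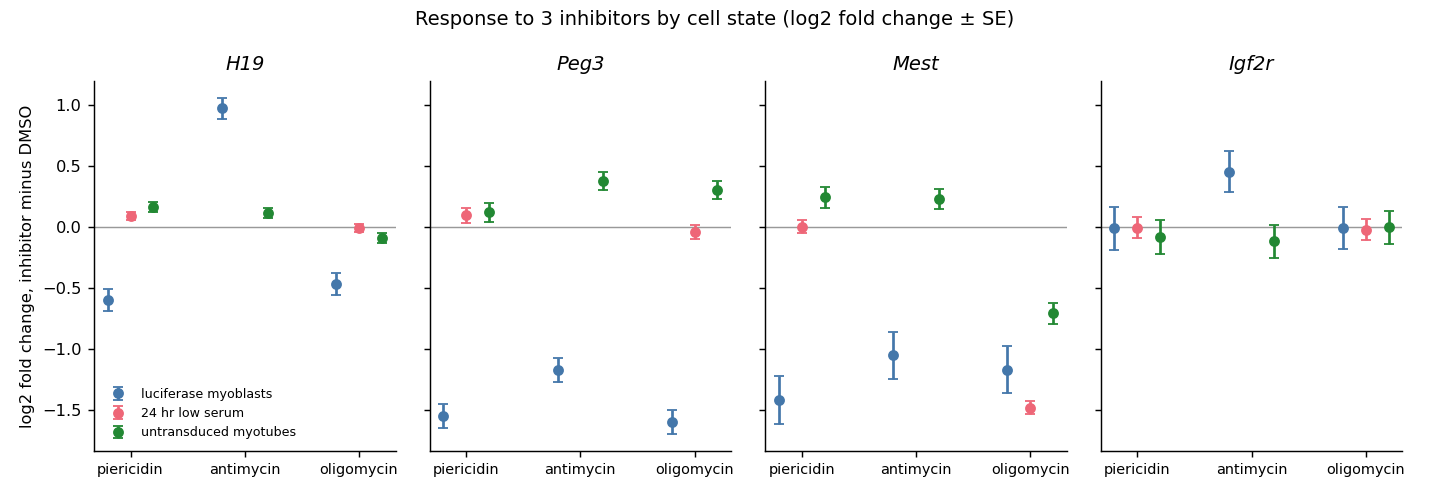
Responses of H19, Peg3, Mest and Igf2r to piericidin, antimycin and oligomycin in Luciferase myoblasts, cells at 24 hr of low serum (piericidin and oligomycin only) and untransduced myotubes, as log2 fold changes against DMSO of the same state (points, estimates; bars, SE; n = 3 per condition). Peg3 lay between -1.60 and -1.17 in myoblasts and near or above 0 in the other states, and Mest fell with oligomycin in all 3 states.

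In transduced myotubes, calls of the members were few, and each of the 7 was lost without at least 1 single replicate number. GFP myotubes have 2 replicates, so leaving out replicate 1 or 2 leaves 1 sample per GFP condition, which is assumed to vary like the LbNOX groups of the model, and leaving out replicate 3 removes LbNOX samples only. Between LbNOX and GFP myotubes with DMSO, 0 of 6 members tested were called by edgeR, with 1 at an unadjusted p under 0.05, and 0.00807% of all 12395 genes called. H19, with a log2 fold change of 0.24 in LbNOX myotubes against GFP myotubes and an edgeR adjusted p = 0.68, was called by DESeq2's Wald test (adjusted p = 0.0304) and by edgeR with no filter (adjusted p = 7.06e-05). In GFP myotubes Mest had 419 and 475 normalized counts with DMSO and 289.7 and 289 with oligomycin, without overlap (log2 fold change -0.58 ± 0.11, edgeR adjusted p = 0.00127), with an adjusted p of 0.0935 with replicate 2 left out. In LbNOX myotubes it had 374, 424 and 384 and 341, 298 and 278 (log2 fold change -0.34 ± 0.09, edgeR adjusted p = 0.00912), with an adjusted p of 0.141 with replicate 2 left out and 0.0959 with replicate 3 left out. With piericidin H19 had 9018 and 9842 in GFP myotubes against 7393 and 8167 with DMSO (log2 fold change 0.28 ± 0.07, edgeR adjusted p = 0.0461), with an adjusted p of 0.265 with replicate 1 left out, 0.086 with replicate 2 left out and 0.071 with replicate 3 left out. In LbNOX myotubes piericidin raised H19 (log2 fold change 0.25 ± 0.06, edgeR adjusted p = 0.016), Igf2 (log2 fold change 0.35 ± 0.07, edgeR adjusted p = 0.00945) and Mest (log2 fold change 0.38 ± 0.09, edgeR adjusted p = 0.0182), and each of the 3 calls was lost when replicate 1 or replicate 3 was left out, the lowest such adjusted p being 0.0567. Of 6 members, 1 was called with piericidin and 1 with oligomycin in GFP myotubes, beside 3.08% and 25.8% of all genes, and 3 and 2 in LbNOX myotubes, beside 6.77% and 31.8%. The second called with oligomycin in LbNOX myotubes was Peg3 (log2 fold change 0.22 ± 0.07, edgeR adjusted p = 0.0256), with an adjusted p of 0.161 with replicate 1 left out and 0.113 with replicate 3 left out. Cd68 was higher there too (log2 fold change 1.39 ± 0.32, edgeR adjusted p = 0.00395). Myf5 and Myog were higher with oligomycin in both GFP (1.46, adjusted p = 1.02e-06 for Myf5) and LbNOX myotubes (1.42, adjusted p = 9.99e-08 for Myf5), and Acta1 was higher with either inhibitor in both. Called lower with oligomycin in both were Myod1 (-0.80 in GFP and -0.75 in LbNOX myotubes), Des (-0.24 and -0.27), Ckm (-0.18 and -0.25), Tnnt3 (-0.19 and -0.20) and Mymk (-0.26 and -0.27). With piericidin, Des and Mymk were called lower and Ckm higher in both. What part they had was not tested. In GFP myotubes no change was called with piericidin for Igf2 (0.25, adjusted p = 0.165), Igf2r (0.01, adjusted p = 0.988), Cdkn1c (-0.11, adjusted p = 0.936), Peg3 (0.04, adjusted p = 0.882) and Mest (0.36, adjusted p = 0.0978), or with oligomycin for H19 (-0.12, adjusted p = 0.264), Igf2 (0.04, adjusted p = 0.783), Igf2r (0.10, adjusted p = 0.614), Cdkn1c (-0.53, adjusted p = 0.354) and Peg3 (0.09, adjusted p = 0.529). In LbNOX myotubes none was called with piericidin for Igf2r (0.04, adjusted p = 0.859), Cdkn1c (-0.30, adjusted p = 0.641) and Peg3 (0.12, adjusted p = 0.359), or with oligomycin for H19 (-0.06, adjusted p = 0.438), Igf2 (-0.01, adjusted p = 0.954), Igf2r (0.24, adjusted p = 0.0909) and Cdkn1c (-0.64, adjusted p = 0.152). The differences between LbNOX and GFP myotubes with DMSO were H19 (0.24, adjusted p = 0.68), Igf2 (0.04, adjusted p = 0.952), Igf2r (0.16, adjusted p = 0.886), Cdkn1c (-0.15, adjusted p = 0.958), Peg3 (-0.0023, adjusted p = 0.996) and Mest (-0.16, adjusted p = 0.869).

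Across the 35 conditions, H19 had its highest mean level in hypoxic myotubes with oligomycin, at 18113 normalized counts, and its lowest in LbNOX myoblasts with antimycin, at 136. The 2 highest conditions, both hypoxic, overlapped each other and did not overlap the next, which were those with BAM15. Igf2 separated into 18 conditions of low serum, with means from 840.3 to 1144, and 17 myoblast conditions with at most 11.1. Peg3 and Mest had their highest means at 24 hr, where the DMSO and piericidin conditions overlapped, and their lowest in LbNOX myoblasts with oligomycin, at 186 and 34.0. For Cdkn1c and Grb10, every condition overlapped the next in the order of means.

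The genes whose pattern was most like that of each member were named as a description. Over the 35 condition means of log2 CPM, among 11947 genes, Igf2 was most like the fast troponin gene Tnnc2 (Pearson r = 0.997), Mylpf (r = 0.996) and Tnni1 (r = 0.995), which encode parts of the contractile apparatus. Igf2r was most like Sema3b (r = 0.984), followed by Acta1 and Myoz2 (r = 0.983 each). H19 was most like H2-T23 (r = 0.988), Vwa5a (r = 0.986) and the collagen gene Col3a1 (r = 0.986). Mest was most like Pcdhgc3 (r = 0.978), Lix1 (r = 0.966) and Ccl11 (r = 0.958), Peg3 like Ephb6 (r = 0.964), and Cdkn1c like Colec12 (r = 0.967). Plagl1 had no close match, the highest being Ssr2 (r = 0.780). The conditions share a cell line and fall into 3 states.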

How the data were processed

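RNA-seq of 96 C2C12 samples was analysed from 1 table of 54146 genes and 4 transgenes. The deposited values were estimated counts, which the authors made with kallisto 0.44 on the mouse transcriptome (mm10), summarized to genes and rounded, from polyA-selected Smart-seq2 libraries that do not keep strand. Library totals were 6458295 to 15366745 counts, and intervals from counts cover counting error only. Groups came from the sample labels. Replicates are separate samples, and the labels do not say whether they come from separate cultures, so p-values measure only the spread between these samples.

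The software was Python 3.11.15 and R 4.3.3, with the packages DESeq2 1.42.0, edgeR 4.0.16 and limma 3.58.1. 6 models were fitted to sets of conditions, giving 40 comparisons. A gene entered a model when some condition in it had 16 or more counts in all its replicates, and edgeR's quasi-likelihood test with TMM normalization was called at a Benjamini-Hochberg adjusted p under 0.05 within a comparison. Standard errors were obtained from each log2 fold change and the root of its F statistic. Levels were scaled with DESeq2 size factors. The authors used DESeq2, which was run as an alternative, with no filter, size factors in edgeR, a replicate block, sample position, fewer conditions and leaving out each replicate number. Sample position means an outer or inner class, read from each sample's letter and number code as if it were a place on a plate. The labels do not explain these codes, so that reading is an assumption. The code was tested on simulated data.

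The 10 genes and the lists of related genes were chosen with earlier results of these data known. At most 7 of the 10 passed the filter in any model, and each is given with its value in every comparison that tested it, except where the filter itself favored a difference: Igf2 and Cdkn1c between low serum and myoblasts, and Plagl1 with piericidin in Luciferase myoblasts and in differences from that response, for which no test is given. From each list at most 4 genes with the largest called changes were named. The most similar genes are those with the highest correlation of mean log2 CPM.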

Additional observations from a re-analysis of the deposited data

Results flagged for a closer look

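26 differences between groups in the response to the same inhibitor were called by edgeR's test of the difference itself, with adjusted p from 2.48e-13 to 0.047. All are on the log2 scale, as the response in the group named minus that in Luciferase myoblasts, and all of them share the Luciferase DMSO samples.

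In LbNOX myoblasts the response to piericidin differed by 1.51 for H19, 1.11 for Peg3 and 0.93 for Mest. For antimycin the differences were -1.44 for H19, -0.66 for Igf2r, 1.18 for Peg3 and 0.95 for Mest, and for oligomycin Peg3 differed by 0.48. In mitoLbNOX myoblasts the response to piericidin differed by 1.00 for H19, 0.99 for Peg3 and 0.84 for Mest, and that to antimycin by -0.42 for H19. In NDI1 myoblasts the response to piericidin differed by 0.61 for H19, 1.08 for Peg3 and 1.24 for Mest.

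In untransduced myotubes the response to piericidin differed by 0.81 for H19, 1.72 for Peg3 and 1.70 for Mest. The response to antimycin differed by -0.81 for H19, -0.53 for Igf2r, 1.59 for Peg3, 1.33 for Mest and -1.88 for Plagl1. The response to oligomycin differed by 0.38 for H19, 1.91 for Peg3 and 0.46 for Mest. With single replicate numbers left out, the edgeR adjusted p for Igf2r with antimycin was 0.679 with replicate 3 left out, and that for Plagl1 with antimycin was 0.113 with replicate 1 left out and 0.219 with replicate 2 left out.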

How the results depend on the processing

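6 of 102 called changes of the members were favored by the filter itself (Igf2 and Cdkn1c between 24 hr and myoblasts, and 4 of Plagl1 with piericidin) and give no support. Of the other 96, 56 kept their call in every alternative fitted (19 of 25 for H19, 18 of 28 for Peg3, 15 of 24 for Mest, 3 of 7 for Igf2, 1 of 4 for Igf2r, 0 of 2 for Cdkn1c and 0 of 6 for Plagl1), and none of their 857 alternative values changed direction. Calls lost numbered 18 with no filter on low counts, which tests more genes, 9 with sample position as a covariate, 10 with only the conditions compared, 1 with DESeq2's Wald test, 0 with DESeq2 size factors, and 28, 21 and 24 without replicate 1, 2 or 3, which leaves fewer samples. No scaling moved the median of all genes by over 0.1 on the log2 scale.

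Counts of called members moved by over 1.5 times as follows. Without a filter, differences in response between myoblast lines fell from 17 to 10 calls, and chloramphenicol gave 3 calls in place of 1. Chloramphenicol gave 0 calls with sample position as a covariate (-0.37, edgeR adjusted p = 0.0638, for Peg3 in Luciferase cells) and 2 with DESeq2's Wald test; the cause was not tested. Leaving out each replicate number gave 11 to 14 calls in place of 17 for responses between myoblast lines, 2 to 6 in place of 6 for the 3 inhibitors in untransduced myotubes, 1 to 2 in place of 3 at 24 hr of low serum, and 1 to 4 in place of 7 in transduced myotubes, where 1 of the 4 was Igf2r with oligomycin in LbNOX cells, not called with all samples. NDI1 myoblasts and GFP myotubes, with 2 replicates, are then left with 1 sample per condition, assumed to vary like the other groups, or lose none without replicate 3. That alternative was not run for chloramphenicol, where it leaves 1 sample per condition and no residual degrees of freedom, and sample position could not be fitted at 24 hr, where all samples share 1 position class.

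Replicate numbers did not pair the samples: correlations of the deviations of same-numbered samples fell as low as -0.33, and their mean was at most 0.054 in the 6 models. With the replicate block, 9 state calls, 12 calls in Luciferase myoblasts and 17 between lines were made, as without it (2, 1 and 2 of them favored by the filter), and only the antimycin response of Igf2r between states lost its call (-0.53, edgeR adjusted p = 0.0552). Depth limited Igf2, Cdkn1c and Grb10 in myoblasts and Meg3 and Dlk1 throughout, where a change was not detectable. With no filter, Grb10 was called higher at 24 hr than in myoblasts (2.93, edgeR adjusted p = 0.00609).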

Other observations

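Of 9 other imprinted genes tested in Luciferase myoblasts, 2 rose and 3 fell with piericidin, 2 rose and 4 fell with antimycin and 1 rose and 2 fell with oligomycin, where 61.7%, 63.2% and 50.8% of all genes were called. Among them Peg10, a retrotransposon-derived gene of placental growth, fell with piericidin (log2 fold change -0.85 ± 0.14, edgeR adjusted p = 5.84e-06), antimycin (log2 fold change -0.53 ± 0.14, edgeR adjusted p = 0.00145) and oligomycin (log2 fold change -1.05 ± 0.14, edgeR adjusted p = 2.80e-07). Dhcr7, which encodes the last enzyme of cholesterol synthesis, fell with piericidin there (log2 fold change -3.01 ± 0.16, edgeR adjusted p = 2.37e-16). Irs1, of the IGF signaling genes and the substrate of the IGF1 and insulin receptors, fell with antimycin (log2 fold change -2.29 ± 0.14, edgeR adjusted p = 8.73e-15) and oligomycin (log2 fold change -1.74 ± 0.13, edgeR adjusted p = 2.41e-12) as well as with piericidin.

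In untransduced myotubes, Zim1, a zinc finger gene next to Peg3, rose with piericidin (log2 fold change 1.01 ± 0.15, edgeR adjusted p = 4.33e-05), antimycin (log2 fold change 1.22 ± 0.14, edgeR adjusted p = 1.14e-06), oligomycin (log2 fold change 0.51 ± 0.15, edgeR adjusted p = 0.00972) and BAM15 (log2 fold change 1.27 ± 0.14, edgeR adjusted p = 3.24e-07), besides hypoxia. Ddc, the neighbor of Grb10, fell with oligomycin in myotubes (log2 fold change -1.77 ± 0.23, edgeR adjusted p = 1.54e-06) and at 24 hr of low serum (log2 fold change -0.73 ± 0.11, edgeR adjusted p = 0.00051). The binding protein gene Igfbp3 fell with oligomycin in both (log2 fold change -2.51 ± 0.58, edgeR adjusted p = 0.00147 in myotubes, and log2 fold change -1.26 ± 0.27, edgeR adjusted p = 0.00568 at 24 hr).

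Luciferase myoblasts kept for 48 hr with DMSO had 720.4 and 818 normalized counts of H19 and 982 and 1064 of Peg3, above the 298, 282 and 303 and 680.0, 695 and 699.9 of the 10 hr samples. The 2 sets differ in time, seeding, model and, per the study, medium, since uridine was present in the 48 hr treatment and not in the 10 hr one, and no test was run between them.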
